A study of Mus musculus with 6 samples.

Results

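The DNA mismatch repair genes measured here are the MutS homologues Msh3 and Msh6 and the MutL homologues Mlh3, Pms1 and Pms2, 5 of the 18193 genes that the arrays name by a single symbol. They were taken by name from the platform annotation, which gives them 10 probe sets, the groups of short oligonucleotides that each measure a transcript. The tested neurospheres came from Ts1Cje mice, which carry an extra copy of distal chromosome 16, from Sod1 to the telomere and with Sod1 itself not functional, translocated onto chromosome 12 on a C57BL/6 background. The controls came from disomic C57BL/6 littermates. All mice were female and 84 days old, and all cultures were grown for 7 days from cells of the lateral wall of the lateral ventricles in medium with EGF and FGF2, so that each array reports a mixed, expanded population of stem cells and progenitors. There were 3 arrays per genotype, which the labels call biological replicates, and the study's methods describe the cultures as pairs of littermates. None of the 5 genes lies in the segment carried in extra copy.

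Mismatch repair corrects the wrongly paired bases and small loops that DNA polymerases leave behind in newly made strands. MutS homologues bind the error as heterodimers, in which Msh6 serves base mismatches and the smallest loops and Msh3 larger loops. MutL homologues are then recruited. Pms2 belongs to the MutL heterodimer that nicks the new strand in dividing body cells, Mlh3 is best known for crossover formation in meiosis, and the part of Pms1 is the least defined. An exonuclease removes the nicked stretch and the replication machinery fills and seals it. Cells that lose the pathway collect mutations, above all in short repeats.

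The arrays gave an expressed signal for each of the 5 genes. The differences are given as M, the average log2 signal in Ts1Cje less the average in disomic neurospheres. A probe set whose average over the 6 arrays, A, was above 5 counted as expressed. Of the 10 probe sets 5 passed this level, 1 for each gene, and intensities of different probe sets cannot be compared as levels of the genes. Pms2 was lower in Ts1Cje neurospheres without overlap of the groups, at 0.726 of the disomic level. Pms1 was lower without overlap and Mlh3 higher without overlap, each by a smaller amount relative to its error, and Msh3 and Msh6 overlapped between the genotypes.

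Promoter sequences are shown for 4 members, because 2 of them share their start region with a neighbouring gene and the other 2 hold a match to a motif described below. They are RefSeq sequences on the build GRCm38.p6 and run from 250 bases before the gene's start to 50 bases after it, 5′ to 3′ on the strand of the gene. The start is the one the RefSeq promoter table gives, 143910001 for Pms2 and 53297028 for Pms1. The gene intervals given further on span all annotated transcripts and can begin upstream of it, for Pms2 at 143909901. Pms2 (chr5:143909751-143910050, plus strand) and Pms1 (chr1:53296979-53297278, minus strand) each have a divergent neighbour, Aimp2 beside Pms2 and Ormdl1 beside Pms1. There the capitals run from the first base of the neighbour to the base before that start of the repair gene, a stretch of 162 bases for Pms2 and 67 bases for Pms1. For Msh3 (chr13:92354954-92355253, minus strand) and Msh6 (chr17:87974800-87975099, plus strand) the capitals mark matches to the E2F motif, the binding letters of the transcription factors that drive S phase genes.
Pms2: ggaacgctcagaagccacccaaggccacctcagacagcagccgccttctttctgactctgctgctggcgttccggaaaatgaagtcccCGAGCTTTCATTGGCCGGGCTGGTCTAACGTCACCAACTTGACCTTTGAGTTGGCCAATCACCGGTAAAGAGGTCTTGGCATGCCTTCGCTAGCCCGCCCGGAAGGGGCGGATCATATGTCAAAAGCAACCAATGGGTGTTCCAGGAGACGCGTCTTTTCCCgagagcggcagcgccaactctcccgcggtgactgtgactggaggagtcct
Pms1: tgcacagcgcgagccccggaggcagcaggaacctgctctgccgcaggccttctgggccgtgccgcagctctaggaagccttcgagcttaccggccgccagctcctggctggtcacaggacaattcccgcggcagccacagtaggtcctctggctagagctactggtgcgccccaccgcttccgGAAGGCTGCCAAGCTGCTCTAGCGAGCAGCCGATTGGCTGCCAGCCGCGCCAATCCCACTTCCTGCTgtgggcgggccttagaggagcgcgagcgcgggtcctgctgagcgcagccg
Msh6: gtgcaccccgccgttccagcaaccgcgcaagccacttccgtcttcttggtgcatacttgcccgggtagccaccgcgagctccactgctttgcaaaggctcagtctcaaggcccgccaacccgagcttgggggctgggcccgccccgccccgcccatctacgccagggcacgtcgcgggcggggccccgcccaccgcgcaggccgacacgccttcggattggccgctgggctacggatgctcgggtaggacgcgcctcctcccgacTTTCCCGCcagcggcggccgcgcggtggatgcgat
Msh3: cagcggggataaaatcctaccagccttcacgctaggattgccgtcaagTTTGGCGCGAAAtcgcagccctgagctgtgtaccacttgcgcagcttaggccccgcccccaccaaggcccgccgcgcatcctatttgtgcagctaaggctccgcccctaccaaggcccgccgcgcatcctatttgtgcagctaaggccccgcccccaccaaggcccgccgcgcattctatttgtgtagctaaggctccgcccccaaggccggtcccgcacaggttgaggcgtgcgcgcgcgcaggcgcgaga

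The E2F motif was searched as TTTCCCGC, TTTCGCGC, TTTGCCGC and TTTGGCGC on both strands. At least 1 of the 4 spellings occurred in 2.26% of the 32851 promoters of the same length. On the partner lists given further on, it occurred in 5 of 15 promoters for S phase and 3 of 13 for excision and resynthesis. For base excision glycosylases it was 1 of 10, and for accessory genes 0 of 6. Msh6 had 1 match, which begins 16 bases into the transcript, and Msh3 had 2 overlapping matches on opposite strands, the first beginning 202 bases before the start. The CCAAT letters, found in 37.4% of promoters on either strand, occurred 3 times in the Pms2 promoter and 2 times in that of Pms1, all inside the capitals, once each in those of Msh6 and Mlh3, and not in that of Msh3. The GC box GGGCGG, found in 35.7% of promoters, occurred 5 times for Msh6, 4 times for Msh3, 2 times for Pms2 and once for Pms1, with no match for Mlh3. These matches describe the letters alone, and their relation to the expression values was not tested.

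Pms2, the MutL homologue of somatic repair, lies on chromosome 5, where its annotated transcripts span 143909901 to 143972745. Its expressed probe set read 5.86, 5.90 and 5.79 on the Ts1Cje arrays, against 6.43, 6.29 and 6.22 on the disomic arrays. All 3 Ts1Cje arrays were low and close together, and the gap to the lowest disomic array was wider than the spread within either genotype. The means were 5.85 ± 0.06 in Ts1Cje and 6.31 ± 0.10 in disomic neurospheres (SD, n = 3 each), with M = -0.46, a standard error of 0.07 and a 95% interval from -0.64 to -0.28. The moderated t of limma was -7.00, past the value of 4 that the study used to select genes. A moderated t below -4 was reached by 0.812% of all expressed probe sets, and among the 5 expressed members by Pms2 alone. A moderated t above 4 was reached by none of them and by 0.965% of all expressed probe sets. The unadjusted p in limma was 0.00162, which does not stand after the Benjamini-Hochberg adjustment over all 45037 probe sets (adjusted p = 1) or over the expressed ones alone (adjusted p = 0.556).

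Fewer cells that express Pms2 and less of its RNA per cell cannot be told apart in whole neurospheres, and this holds for all genes below. The array's controls of RNA integrity also differed between the genotypes without overlap. The 3′ minus 5′ signal of actin was 1.87 to 2.26 on Ts1Cje arrays and 1.53 to 1.83 on disomic arrays, that of Gapdh 2.29 to 2.44 on Ts1Cje arrays and 2.09 to 2.28 on disomic arrays. The 18S ribosomal RNA control was 11.97 to 12.36 on Ts1Cje arrays and 10.24 to 11.74 on disomic arrays (exact permutation p = 0.1 for each of the 3, two-sided, the smallest that 3 against 3 arrays allow). The part of these differences in the values of Pms2 and the other repair genes was not tested.

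The other probe sets of Pms2 were not expressed by the level of A, and a signal near the floor can understate a change. The brighter of them read 4.75, 4.76 and 4.82 on the Ts1Cje arrays and 4.76, 4.59 and 4.76 on the disomic arrays. Its A of 4.74 lay just under the level of 5 and well above the lowest value of 2.23, beside 6.08 for the expressed probe set. These groups overlapped, with M = 0.07 and a 95% interval from -0.09 to 0.23 in limma. That interval does not reach the M of -0.46 of the expressed probe set, so these 2 probe sets disagree. The reason was not tested. The remaining probe set stood at 2.28 on all 6 arrays. Which part of the transcript each of them measures is not given in the sources used here, so the value for Pms2 rests on 1 of its 3 probe sets.

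Pms1, a MutL homologue on chromosome 1 (53189187 to 53297031), had the smallest error after Pms2. It read 5.82, 5.71 and 5.67 on the Ts1Cje arrays, against 5.88, 6.18 and 5.96 on the disomic arrays. The highest Ts1Cje array and the lowest disomic array lay almost level, and the disomic arrays differed among themselves by more than that gap. M was -0.27 with a 95% interval from -0.53 to -0.01, a moderated t of -2.84 and adjusted p = 1 in limma, so Pms1 did not pass the moderated t of 4. Groups with every Ts1Cje array below every disomic array made up 5.21% of expressed probe sets, and 2 of the 5 members, Pms1 and Pms2, were among them.

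Mlh3, on chromosome 12 between 85234466 and 85270647, went the other way. It read 5.92, 5.76 and 6.05 on the Ts1Cje arrays, against 5.33, 5.76 and 5.01 on the disomic arrays. The Ts1Cje arrays were close together, whereas disomic replicate 2 reached the lowest Ts1Cje array to within the second decimal and the other disomic arrays lay well below. The means were 5.91 ± 0.15 in Ts1Cje and 5.36 ± 0.37 in disomic neurospheres (SD, n = 3 each). M was 0.55, a fold change of 1.46, with a 95% interval from -0.05 to 1.15 and adjusted p = 1 in limma. Its moderated t of 2.46 did not pass 4. Without disomic replicate 2 the M of Mlh3 was 0.74 and its moderated t 4.83, in a setting where 1.47% of expressed probe sets had a moderated t above 4. Leaving out the highest disomic array raises M by construction, and the adjusted p in limma was still not under 0.05. Across all 6 arrays, 5.53% of expressed probe sets had every Ts1Cje array above every disomic array.

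Mlh3 and Pms2 encode MutL proteins that are alternatives to each other in their heterodimers, and their M values had opposite signs. The log2 signal of Mlh3 minus that of Pms2 was 0.06, -0.14 and 0.26 on the Ts1Cje arrays, against -1.10, -0.54 and -1.21 on the disomic arrays. The means differed by 1.01. Each gene alone already separated the genotypes, in opposite directions, so their difference had to separate them too and is no further support. This pair was chosen after the values of both genes were seen.

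Both MutS homologues overlapped between the genotypes. Msh6, which recognises base mismatches and lies on chromosome 17 from 87975050 to 87990892, read 10.37, 9.93 and 9.86 on the Ts1Cje arrays, against 10.36, 10.21 and 10.24 on the disomic arrays. Ts1Cje replicate 1 matched the highest disomic array and the other Ts1Cje arrays lay below all disomic ones. M was -0.22 with a 95% interval from -0.65 to 0.21 and adjusted p = 1 in limma. Without Ts1Cje replicate 1 the M of Msh6 was -0.38 with a moderated t of -6.24, in a setting where 2.79% of all expressed probe sets had one below -4, and its adjusted p in limma was still 0.855.

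Msh3, which serves larger loops and lies on chromosome 13 from 92211878 to 92355004, read 6.81, 6.39 and 6.30 on the Ts1Cje arrays, against 6.37, 6.92 and 6.44 on the disomic arrays. The highest array of each genotype stood apart from the others, and the groups overlapped throughout. M was -0.08 with a 95% interval from -0.68 to 0.53, adjusted p = 1 in limma, and its sign turned when Ts1Cje replicate 3 (M = 0.02) or disomic replicate 2 (M = 0.09) was left out. The interval leaves room for a change as large as that of Pms2 in either direction. The other 3 probe sets of Msh3 had A between 2.23 and 2.37, near the lowest value of the arrays, and M between -0.03 and 0.02.

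**Figure D1:**
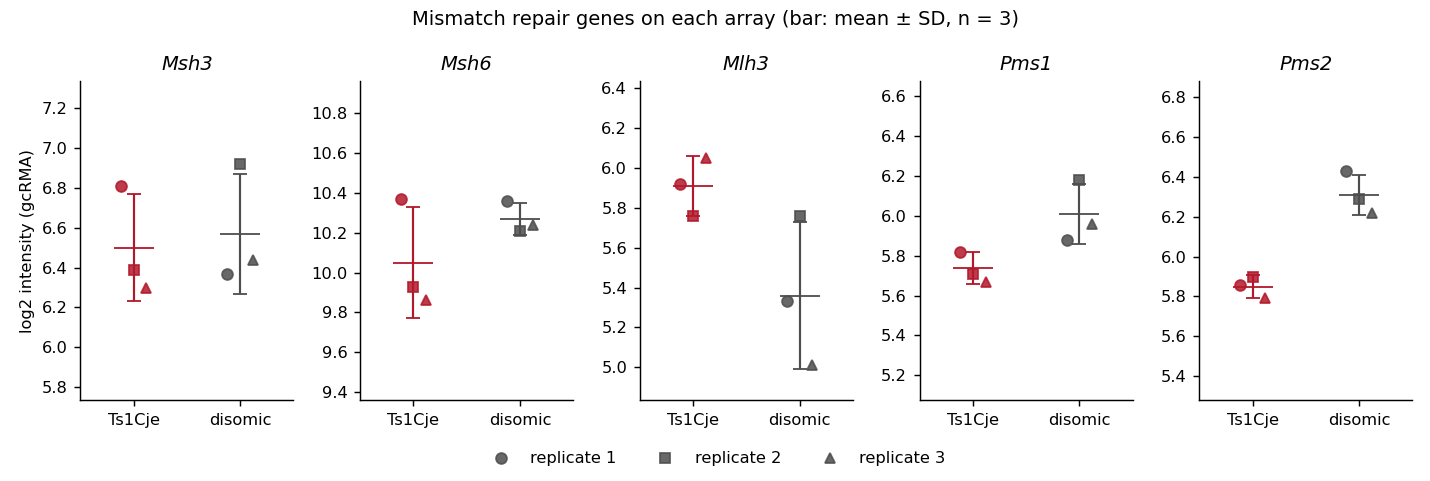
Log2 intensity of the expressed probe set of each mismatch repair gene on the 3 Ts1Cje and 3 disomic arrays, with symbols for replicates and bars for the mean ± SD, each panel spanning the same range of log2 units. Pms2 lies between 5.79 and 5.90 on Ts1Cje arrays and between 6.22 and 6.43 on disomic arrays, while for Msh6 Ts1Cje replicate 1 lies level with the disomic arrays.

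As a group, 4 of the 5 members had an M below 0, where 46.1% of the 8947 expressed genes did, each by its brightest probe set. Their median M was -0.22, beside 0.02 over all expressed genes. Of the 5, 1 had a moderated t below -4 and 0 a moderated t above 4, where 0.693% and 1.13% of expressed genes had. At an unadjusted p under 0.05 in limma there were 2 members, Pms1 and Pms2, beside 6.18% of expressed probe sets, and 0 passed an adjusted p of 0.05, as 0.00222% of all probe sets did.

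The divergent neighbours of Pms2 and Pms1 overlapped between the genotypes. Aimp2, a scaffold protein of the aminoacyl-tRNA synthetase complex, starts on the opposite strand at 143909839, 162 bases from the Pms2 start used for the promoter (143910001). Its brightest probe set read 8.17, 7.92 and 8.24 on the Ts1Cje arrays, against 8.26, 7.85 and 8.14 on the disomic arrays. Neither genotype was set apart, with M = 0.03 and a 95% interval from -0.38 to 0.43, and a dimmer probe set had M = -0.09. The log2 signal of Pms2 minus that of Aimp2 was -2.26 ± 0.22 on Ts1Cje arrays and -1.77 ± 0.19 on disomic arrays (SD, n = 3 each), lower on every Ts1Cje array. Pms2 alone was already lower without overlap, and Aimp2 hardly differed, so this difference largely restates that of Pms2.

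Ormdl1, a regulator of sphingolipid synthesis, starts 67 bases from the Pms1 start used for the promoter. It read 9.73, 9.52 and 9.67 on the Ts1Cje arrays, against 9.59, 10.05 and 9.56 on the disomic arrays. Disomic replicate 2 was the highest array for Ormdl1, as it was for Pms1, and the groups overlapped, with M = -0.09 and a 95% interval from -0.54 to 0.35. The difference of both genes was -3.90 ± 0.09 on Ts1Cje arrays and -3.73 ± 0.14 on disomic arrays (SD, n = 3 each) with overlapping groups (exact permutation p = 0.2, two-sided), so a difference between Pms1 and its neighbour was not detectable with these arrays.

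**Figure D2:**
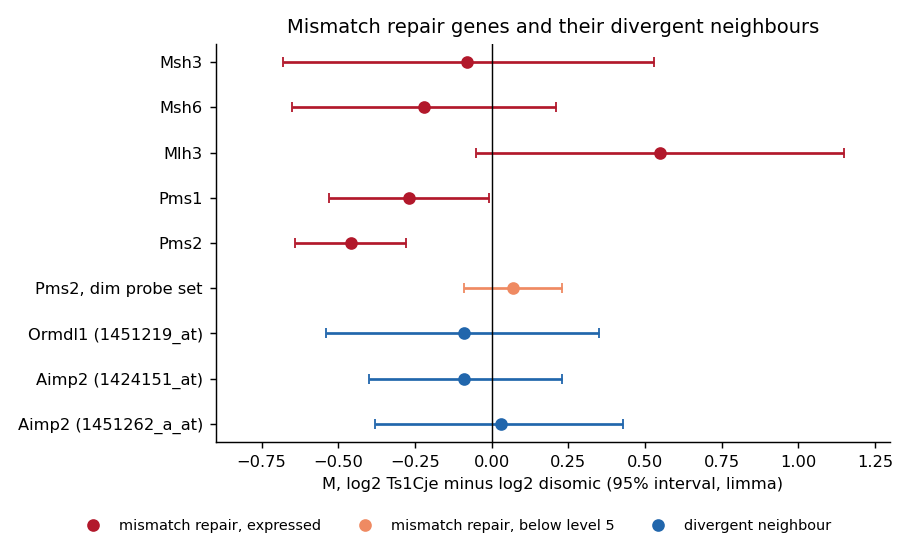
M with its 95% interval from limma for the expressed probe sets of the mismatch repair genes, a dim probe set of Pms2 and the probe sets of Aimp2 and Ormdl1, the divergent neighbours of Pms2 and Pms1. The intervals of Pms2 (-0.64 to -0.28) and Pms1 (-0.53 to -0.01) lie below 0, and all others cross it.

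Of the genes listed for excision and resynthesis most had an M below 0 and none passed a moderated t of 4. All 16 listed genes of excision and resynthesis were expressed, 14 of them with an M below 0, and their median M was -0.40, beside 0.02 over all expressed genes. The genotypes did not overlap for 3 of them, Pcna, Rfc5 and Pold3, all lower in Ts1Cje, and for none higher in Ts1Cje, where 5.16% and 6.12% of expressed genes did not overlap in these directions. Pcna, the sliding clamp that directs repair to the new strand, read 12.12, 11.68 and 11.80 on the Ts1Cje arrays, against 12.37, 12.26 and 12.34 on the disomic arrays. No array overlapped, with M = -0.45 and a 95% interval from -0.81 to -0.10. Rfc5, a subunit of the clamp loader, had M = -0.55 and a 95% interval from -1.03 to -0.06. Pold3, a subunit of DNA polymerase delta, had M = -0.75 and an interval from -1.50 to 0.01. Exo1, the exonuclease of the pathway, read 5.84, 4.97 and 4.44 on the Ts1Cje arrays, against 5.77, 5.89 and 5.78 on the disomic arrays, and was named after its values were seen. As for Msh6, Ts1Cje replicate 1 lay among the disomic arrays while the others were lower, and M was -0.73 with an interval from -1.78 to 0.33.

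Smaller lists of neighbouring repair functions gave few expressed genes. Of the accessory genes Smarcad1, a chromatin remodeller, had M = -0.31, Mcm9, a helicase, M = -0.07, and Setd2, the histone methyltransferase whose mark Msh6 binds, M = 0.13, all with a moderated t within 4. Of 9 base excision glycosylases with a probe set, 3 were expressed and all had an M below 0. Among them Ung, which removes uracil from DNA, read 9.03, 8.47 and 8.57 on the Ts1Cje arrays, against 9.43, 9.35 and 9.13 on the disomic arrays. These groups did not overlap, and M was -0.61 with a 95% interval from -1.11 to -0.11 and a moderated t of -3.29. Neil1 and Smug1, which remove oxidised bases and uracil, had M values of -0.18 and -0.04 with overlapping groups.

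The S phase list had the lowest median M of the 4 lists. All 17 expressed members of this list had an M below 0, as 46.1% of all expressed genes did, and the median was -0.54. For 8 of them every Ts1Cje array was below all disomic ones, as for 5.16% of expressed genes. Mcm7, a subunit of the replicative helicase, had M = -0.73 with a moderated t of -5.85, and Rrm1, a subunit of ribonucleotide reductase, M = -0.50 with a moderated t of -4.22. Mcm3, another helicase subunit, had M = -0.81 with a moderated t of -3.72. No expressed gene on any of the 4 lists, Mcm7 and Rrm1 included, had an adjusted p under 0.05 in limma. Mcm7 and Rrm1 were the only genes of these 4 lists past a moderated t of 4, 2 of 39 expressed genes, where 0.693% of all expressed genes had a moderated t below -4. That count depends on Ts1Cje replicate 1, since without it 19 of the 39 expressed genes on these lists had a moderated t below -4, 12 of them S phase genes and 6 of excision and resynthesis, and the share over all expressed probe sets was then 2.79% instead of 0.812%. Without disomic replicate 1 or disomic replicate 3 the count was 1. The share of all expressed probe sets with a moderated t below -4 was then 1.06% and 1.94%, respectively.

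**Figure D3:**
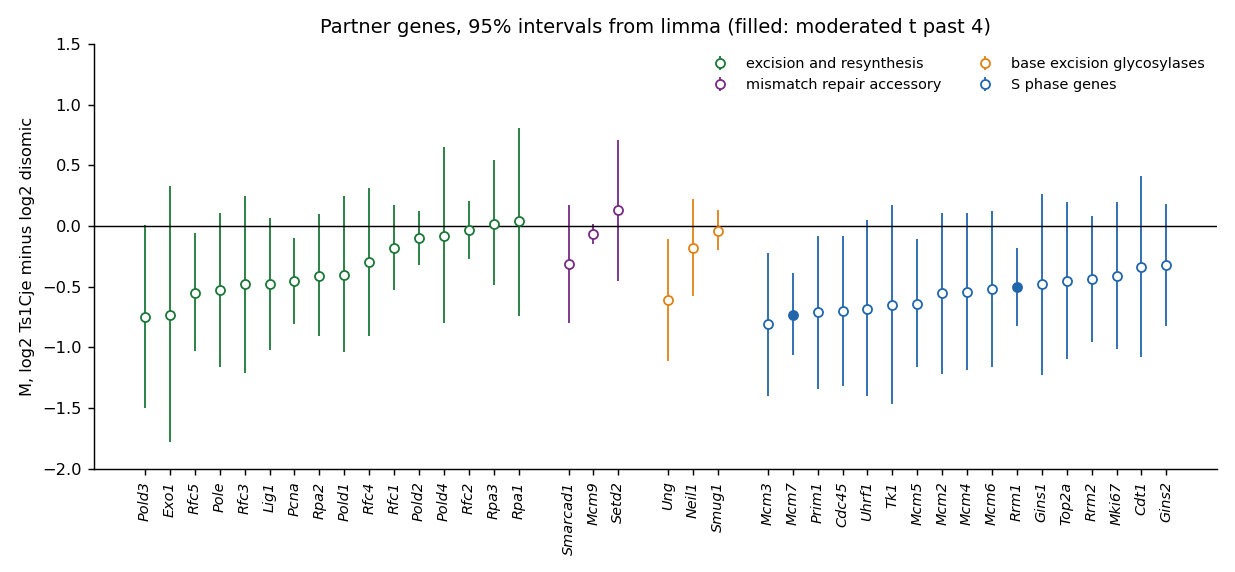
M with its 95% interval from limma for the expressed genes of excision and resynthesis (16), the accessory genes (3), the base excision glycosylases (3) and S phase (17), ordered by M within each list. Filled points mark Mcm7 and Rrm1, the genes with a moderated t past 4, and the medians of the first and the last list are -0.40 and -0.54.

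Ts1Cje replicate 1 stood above the other Ts1Cje arrays for Msh6, as it did for the S phase genes. The mean deviation of the S phase genes from their 6-array average was 0.08, -0.55 and -0.37 on the Ts1Cje arrays, against 0.35, 0.13 and 0.35 on the disomic arrays. Ts1Cje replicate 1 lay close to the disomic arrays. Msh6 deviated by 0.21, -0.24 and -0.30 on the Ts1Cje arrays, against 0.20, 0.05 and 0.08 on the disomic arrays, with the same array of Ts1Cje set apart. Pms2 deviated by -0.22, -0.18 and -0.29 on the Ts1Cje arrays, against 0.34, 0.21 and 0.14 on the disomic arrays. For Pms2 the array Ts1Cje replicate 1 was as low as the others, and without it M was still -0.46. Whether Pms2 differs from the S phase genes in this respect was not tested.

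**Figure D4:**
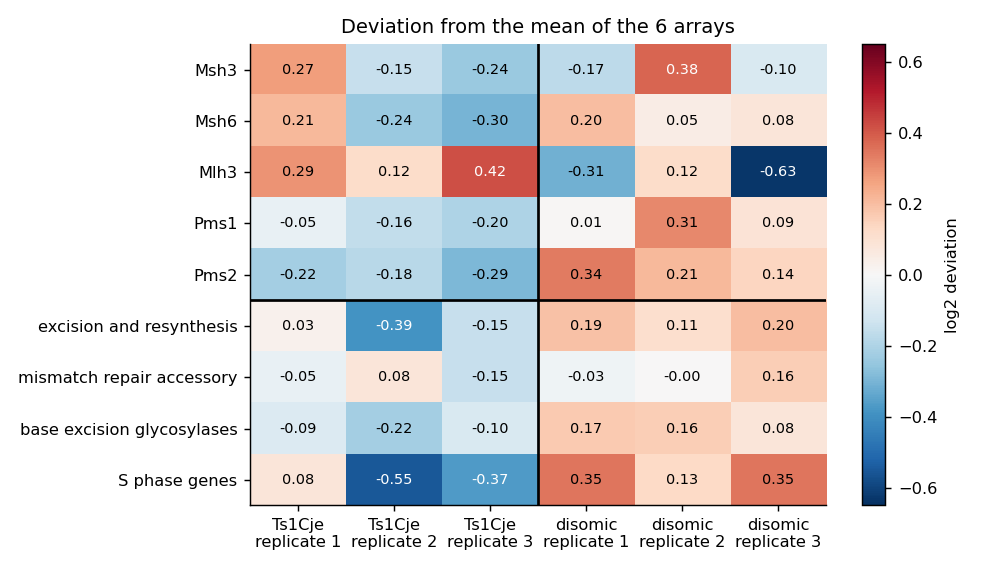
Deviation of each mismatch repair gene, and the mean deviation of the expressed genes on 4 lists, from the average of the 6 arrays, in log2 units, with Ts1Cje arrays left and disomic arrays right. Pms2 is negative on all 3 Ts1Cje arrays (-0.29 to -0.18), while Msh6 and the S phase genes are positive on Ts1Cje replicate 1 and negative on the other Ts1Cje arrays.

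In the average deviation of the 5 members Mlh3, with an M above 0, partly offset the others, which had an M below 0. That average overlapped between the genotypes, at 0.10, -0.12 and -0.12 on the Ts1Cje arrays, against 0.02, 0.21 and -0.08 on the disomic arrays. The 5 genes whose pattern over the 6 arrays was most like it were the deubiquitinase Otud1, the cytochrome Cyp20a1, the acyl-protein thioesterase Lypla1, the RNA-binding Rbm48 and Enoph1 of methionine salvage, at a Pearson r between 0.990 and 0.994. These arrays are shared by all points, and 172 of the 5022 genes compared had an r above 0.9. None of these 5 genes differed between the genotypes by a moderated t past 4, and their M values ran from -0.28 to -0.16.

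Other measures of the arrays bear on these values. The trisomic segment placed all 6 arrays in their labelled genotype, with a median M of 0.54 over its 80 expressed probe sets. The 7 measured markers of neural stem and progenitor cells, such as Sox2 and Nes, were all expressed, with a mean log2 intensity from 11.57 to 11.64 on Ts1Cje arrays and from 11.45 to 11.76 on disomic arrays. Of the 6 microglial and 5 ependymal markers 0 were expressed. The means of the microglial list ran from 2.28 to 2.35 on Ts1Cje and from 2.28 to 2.30 on disomic arrays, and those of the ependymal list from 2.79 to 3.11 on Ts1Cje and from 2.70 to 2.80 on disomic arrays. Of the markers of neuroblasts and neurons 1 of 7 was expressed, of oligodendrocytes 3 of 5 and of vascular cells 1 of 6, each list with overlapping means.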

How the data were processed

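RNA of 3 Ts1Cje and 3 disomic neurosphere cultures was amplified, labelled and hybridised to Affymetrix arrays of the mouse transcriptome. The authors deposited log2 intensities that they had made with gcRMA (version not given in the sources used here), which corrects probes for background by base composition, normalizes between arrays and summarises each probe set. Low signals are compressed towards a common floor, so M of a dim probe set can understate a change. Scans were not analysed here, and the number of arrays limits the precision.

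Names came from the platform annotation, where it pairs 1 symbol with a probe set, and genes were represented by their brightest probe set unless stated. All 45037 probe sets besides 64 controls were fitted with genotype as the only term in limma 3.58.1 (R 4.3.3, moderated t, two-sided, Benjamini-Hochberg). The prior degrees of freedom were 0.336. The steps were tested on simulated arrays, with shifts larger than any M given here, so that test does not cover changes of the size reported. Summaries used pandas 2.3.3 (Python 3.11.15), plots matplotlib 3.10.9.

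The members and lists were chosen with earlier results of these arrays known. Named genes were all members, for each of 4 partner lists the genes past a moderated t of 4, or the 3 with the largest where fewer than 3 passed, genes that start within 1000 bases on the opposite strand, and the 5 most alike over arrays (SD of at least 0.2). Promoters came from RefSeq tables for GRCm38.p6. The alternatives tried were a block for replicate number, omission of each array in turn, cyclic loess, array weights, an intensity-dependent prior, other levels of A and averaging of probe sets per gene. P-values in limma set the difference between genotypes against the spread between cultures of the same genotype, without the pairing of littermates.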

Additional observations from a re-analysis of the deposited data

How the results depend on the processing

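The M of Pms2 stayed between -0.51 and -0.40 and past a moderated t of 4 in all 10 alternative fits, with an adjusted p in limma from 0.921 to 1, and 0.556 when p-values were adjusted over the expressed probe sets alone, an alternative chosen after seeing the data. That of Pms1 stayed between -0.33 and -0.19 and within a moderated t of 4 in all of them. Leaving out each array in turn gave an M from -0.23 to 0.09 for Msh3, from -0.38 to -0.13 for Msh6 and from 0.37 to 0.74 for Mlh3. The number of members past a moderated t of 4 was then 1 to 2, the added gene being Msh6 without Ts1Cje replicate 1 and Mlh3 without disomic replicate 2, and the median M was -0.32 to -0.13. The count of partner genes past a moderated t of 4, which was 2, ranged from 1 to 19 when arrays were left out, and was 1 with probe sets averaged per gene. With the replicate number as a block it was 12. The cultures were pairs of littermates, but the sources used here do not say that equal replicate numbers mark a pair, so the pairing is not settled. Deviations of arrays with the same number correlated at -0.173, -0.033 and 0.127 and Ts1Cje replicate 1 correlated best with disomic replicate 2 (0.395). The block raised the share of expressed probe sets with a moderated t below -4 to 3.56%, gave Pms2 a moderated t of -9.10, and changed no call of a member. The cause of these changes was not tested. With 3 arrays per genotype, intervals of M as wide as those of Msh3 and Mlh3 leave a change of the size seen for Pms2 undetected.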
